A study of Sus scrofa with 12 samples.

Results

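The Krüppel-like factors (KLF) are transcription factors that bind GC-rich and CACCC sequences of promoters with the C2H2 zinc fingers at their C-terminal end. Outside the fingers they differ, and some activate and others repress their target genes. Several respond within a short time to signals that reach a cell, such as blood flow in endothelial cells (KLF2 and KLF4), growth factors of the TGF-beta family (KLF10), glucocorticoids (KLF9 and KLF15) and thyroid hormone (KLF9), and KLF4, KLF7 and KLF9 are known from rodents for their effects on the growth of axons. The genes described here were chosen by symbol as 10 members of the family, KLF2, KLF3, KLF4, KLF5, KLF6, KLF7, KLF9, KLF10, KLF13 and KLF15, out of 19256 genes in the mRNA table.

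The mRNA came from a part of the tissue labelled as hypothalamus, of 3 germ-free (GF) and 3 colonized (CG) pigs. GF pigs had no gut microbiota, and CG pigs received fecal microbiota of a donor pig from day 3 to day 7 of life. All of them were newborn germ-free Bama piglets of a single sow, reared in isolators and listed as male and 45 days old in the labels, while the methods of the study give a slightly younger age. Which pigs shared an isolator is not named, so isolator and microbiota cannot be told apart. The deposited values are TPM (a level scaled by transcript length and by the sum of the library), which were added up over the transcripts of each gene.

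The libraries also differed in markers of brain regions and of other tissue. The 10 listed markers of the hypothalamus, such as NKX2-1 and AGRP, summed to 0.99 to 1071 TPM in GF pigs, against 970.7 to 2419 TPM in CG pigs. Of these 10, 6 fell in GF pigs and 0 rose, and GF replicate 1 had the sum of 0.99 TPM. Without CG replicate 1 or without CG replicate 2, 2 of them fell, and the omission of any other library left 4 to 6. The markers SHOX2 and TCF7L2 of the thalamus were high in GF replicates 1 and 3. Of the 5 listed thalamus markers 0 rose and 0 fell, and 4 had a positive and 1 a negative log2 fold change. Without GF replicate 2, 3 of these markers rose, and without any other single library 0 did. Their sum was 467.7, 102.8 and 331.7 TPM in GF replicates 1, 2 and 3, against 100.1 to 107.9 TPM in CG pigs. Pituitary markers summed to 1.78 to 12.3 TPM in GF pigs, against 15.9 to 5372 TPM in CG pigs with the highest sum in replicate 3. The Y-linked gene ZFY was listed at 0 to 0.03 TPM in all GF pigs. Among CG pigs it had 13.7 TPM (replicate 1), 16.1 TPM (replicate 2) and 0 (replicate 3), so 4 of the 6 libraries lacked it although all are labelled male. The part of these differences in the results below was not tested, and in bulk tissue fewer cells of a type and less RNA per cell cannot be told apart.

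All 10 family members were detected in both groups, in tissue labelled as hypothalamus. Each passed the filter for testing (a value of at least 1 TPM in at least 3 libraries). KLF4 rose in GF pigs, a call that was lost when most single libraries were left out, and the other 9 members did not pass at an adjusted p under 0.05. Over all 14641 tested genes, 1.08% rose and 4.93% fell by this rule, which is 158 and 722 genes, against 265 and 129 with each library centred on its median. KLF4 also met the stricter rule, which also asks for a log2 difference no smaller than 1, by which 0.471% of all tested genes rose and 2.42% fell. At an unadjusted p under 0.05, 6 of the 10 members and 30.9% of all tested genes passed. The values of KLF2 and KLF4 lay higher in every GF pig than in every CG pig, as they did for 5.42% of all tested genes. Those of KLF5, KLF7 and KLF10 lay lower in every GF pig, as they did for 32.8%. The median log2 fold change, GF over CG, was -0.10 for the members and -0.23 for all tested genes, and 6 of the 10 members and 72.7% of all tested genes had a negative value. Genes of the mitochondrial DNA took 17.8% of the summed TPM in each GF pig, against 8.17% to 11.8% in CG pigs. With them out of the scaling, the median of all tested genes was -0.14, and the part of this share in the results was not tested. Calls were made by limma on log2(TPM + 1) with adjustment over all tested genes, and with 3 pigs a group the smallest p of an exact permutation test is 0.1. The p-values measure the spread between these pigs, all of 1 litter.

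**Figure D1:**
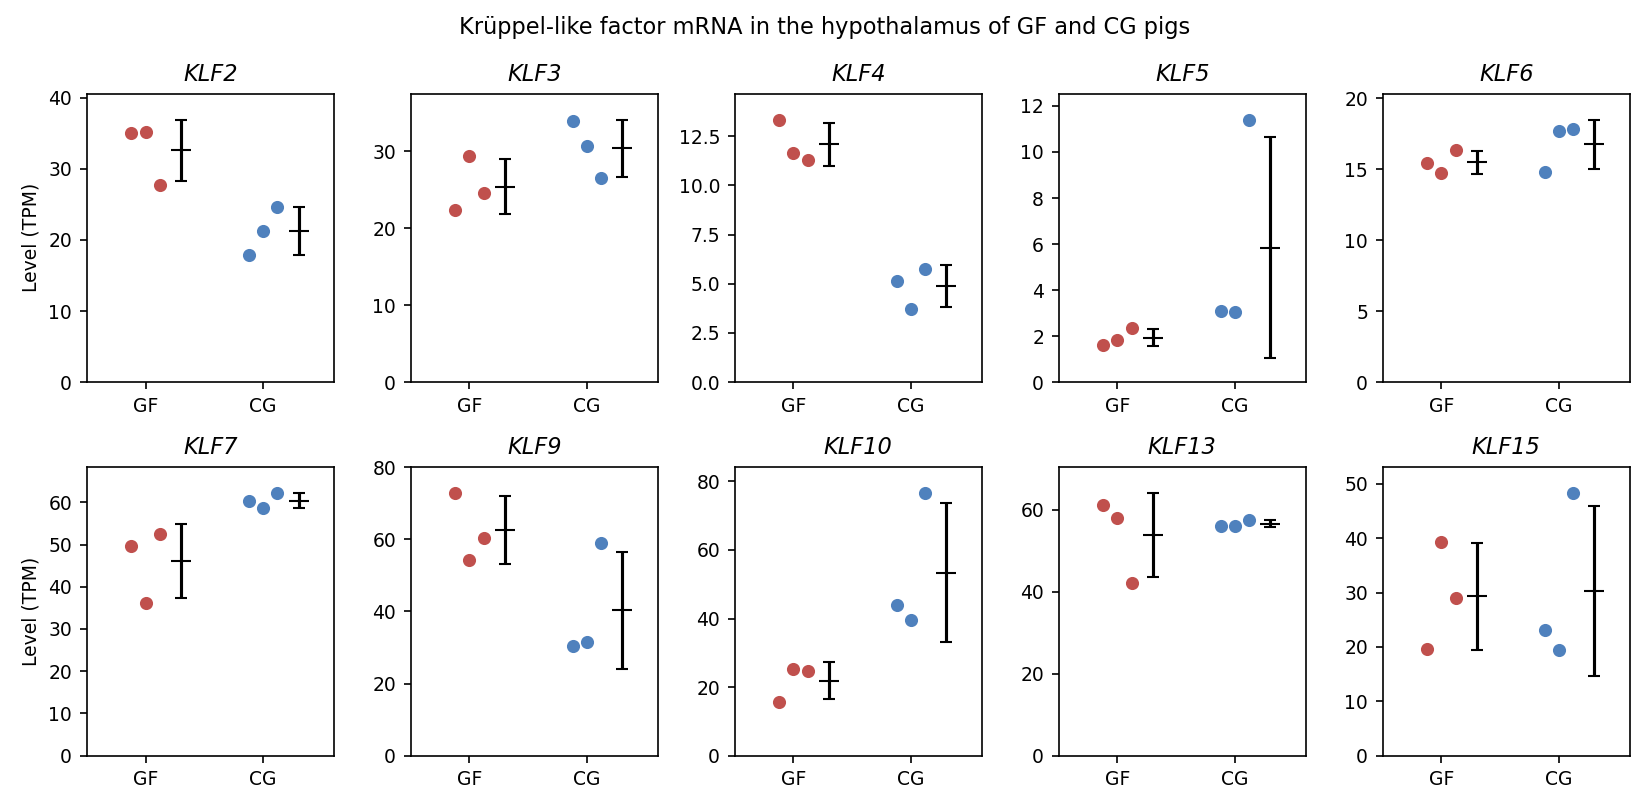
Levels of the 10 family members in TPM, with a point for each pig and, beside the points, the mean with its SD (n = 3). The GF points of KLF2 and KLF4 lie above all CG points, and those of KLF5, KLF7 and KLF10 lie below them.

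The order of levels ran from KLF13, with a mean of 55.2 TPM over the 6 libraries, through KLF7 (53.2 TPM), KLF9 (51.4 TPM), KLF10 (37.6 TPM), KLF15 (29.8 TPM), KLF3 (27.9 TPM), KLF2 (26.9 TPM), KLF6 (16.1 TPM) and KLF4 (8.48 TPM) to KLF5 (3.89 TPM). The first 3 overlapped in their ranges over pigs, as did KLF10, KLF15, KLF3 and KLF2. The order differed between the groups. KLF9 had the highest mean in GF pigs, at 62.6 ± 9.37 TPM, and KLF7 in CG pigs, at 60.3 ± 1.75 TPM (SD, n = 3 each). The 10 members together summed to 306.6, 305.8 and 291.2 TPM in GF replicates 1, 2 and 3, against 288.7, 281.7 and 389.7 TPM in CG replicates 1, 2 and 3. The sum of CG replicate 3 was above all others and the remaining libraries were close to each other.

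KLF4, a factor of endothelial, smooth muscle and epithelial cells and of pluripotent stem cells, lies on chromosome 1 from 248604817 to 248609574 (RefSeq positions on Sscrofa11.1, as for all genes here). It was at 13.3, 11.6 and 11.3 TPM in GF replicates 1, 2 and 3, against 5.15, 3.70 and 5.77 TPM in CG replicates 1, 2 and 3. The GF pigs were close to each other, and the lowest of them was well above the highest CG pig. The log2 fold change was 1.17 (standard error 0.20, adjusted p = 0.033), and it exceeded that of 99.3% of all tested genes. KLF4 kept a positive log2 fold change with any library left out, between 1.02 and 1.28. The call itself held only without GF replicate 2 (adjusted p = 0.040) and was lost without any other library, with an adjusted p of 0.055 to 0.15. Both of its transcripts above 0 lay higher in every GF pig. ENSSSCT00000032943 was at 9.57, 7.84 and 7.54 TPM in GF pigs, against 3.59, 2.89 and 3.11 TPM in CG pigs (fitted log2 fold change 1.15, adjusted p = 0.027 over all tested transcripts). ENSSSCT00000089945 was at 3.77, 3.79 and 3.77 TPM in GF pigs, against 1.56, 0.81 and 2.66 TPM in CG pigs (fitted log2 fold change 0.89, adjusted p = 0.10). The third transcript was listed at 0 in every library.

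KLF2, the flow-responsive factor of endothelial cells and a regulator of resting T cells, lies on chromosome 2 from 61270733 to 61273037. It was at 35.05, 35.1 and 27.7 TPM in GF replicates 1, 2 and 3, against 17.9, 21.3 and 24.65 TPM in CG replicates 1, 2 and 3. The groups did not overlap, but GF replicate 3 and CG replicate 3 were close. A log2 fold change of 0.60 (standard error 0.17) did not pass (adjusted p = 0.074) and was positive under all 13 alternative settings fitted on genes. Both KLF2 and KLF4 are expressed in endothelial cells, and 8 endothelial markers were listed beside them. These summed to 220 to 281 TPM in GF pigs, against 236 to 258 TPM in CG pigs, 0 of them passed, and the median log2 fold change was -0.35. Of the 8 markers 6 had a negative and 2 a positive value. CLDN5, a tight junction protein of the blood-brain barrier, was at 36.15, 41.9 and 31.2 TPM in GF pigs, against 53.5, 47.3 and 42.2 TPM in CG pigs. The smallest p was that of ESAM, an adhesion molecule (-0.45, adjusted p = 0.13), while EGFL7, a secreted endothelial factor, lay the other way at 109, 63.95 and 89.65 TPM in GF pigs, against 69.0, 63.3 and 57.8 TPM in CG pigs (0.43, adjusted p = 0.19).

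Endothelial genes that KLF2 and KLF4 are known to control were tested next. Of 8 such genes 0 passed, and the median log2 fold change was -0.30. The list was not split by whether KLF2 and KLF4 raise or lower a gene. Its median and signs thus have no single expected direction. All 8 had a negative value, as did 72.7% of all tested genes, but 5 of 8 with centred libraries (median -0.06) and 5 of 8 without CG replicate 3 (median -0.06). NOS3, the nitric oxide synthase that KLF2 induces, was at 9.55, 9.39 and 6.67 TPM in GF pigs, against 9.74, 8.35 and 8.21 TPM in CG pigs. The smallest p values of this list were those of NQO1, a quinone reductase (log2 fold change -0.56, adjusted p = 0.054), and ICAM2, an adhesion molecule of endothelial cells (-0.93, adjusted p = 0.090). In the kinase arm upstream of KLF2 and KLF4, MAP3K2 or MAP3K3 activates MAP2K5 and ERK5 and the MEF2 factors. Its list also holds genes of the cerebral cavernous malformation complex, which restrains this arm. Of the 9 tested genes 0 passed, and the median log2 fold change of -0.30 pools both kinds. PDCD10, a part of that complex, was at 22.6, 21.9 and 28.25 TPM in GF pigs, against 13.6, 16.9 and 13.2 TPM in CG pigs (fitted log2 fold change 0.69, adjusted p = 0.055). The kinase MAP3K2 was lower in every GF pig than in every CG pig (-0.78, adjusted p = 0.059).

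**Figure D2:**
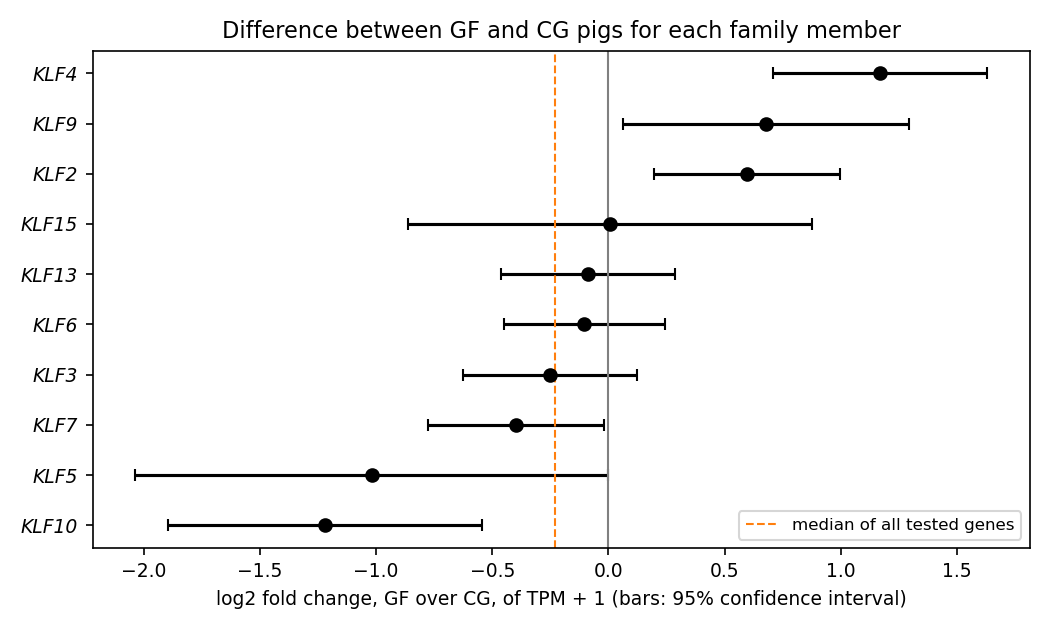
Log2 fold change of each member, GF over CG, on the log2(TPM + 1) scale, with its 95% confidence interval from limma. The grey line marks no difference and the dashed line the median of all tested genes, -0.23. KLF4 at 1.17 is the highest and KLF10 at -1.22 the lowest.

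KLF10, an early response gene of TGF-beta signaling that represses transcription, lies on chromosome 4 from 34430132 to 34435990. It was at 15.6, 25.4 and 24.7 TPM in GF replicates 1, 2 and 3, against 44.1, 39.6 and 76.55 TPM in CG replicates 1, 2 and 3. Every GF pig lay below every CG pig, with CG replicate 3 far above the rest. Its log2 fold change of -1.22 (standard error 0.29) did not pass (adjusted p = 0.053). Without CG replicate 3 it was -0.93 (adjusted p = 0.095), and it stayed negative under all 13 alternative settings fitted on genes. Of 10 tested genes of TGF-beta signaling 0 passed, and their median log2 fold change was -0.44. All 10 had a negative value, as did 72.7% of all tested genes, but 6 of 10 with each library centred on its median and 8 of 10 without CG replicate 3. SMAD3, a signal carrier of this pathway, was at 10.2, 14.5 and 12.1 TPM in GF pigs, against 20.3, 20.5 and 34.1 TPM in CG pigs (fitted log2 fold change -0.94, adjusted p = 0.059). The ligand TGFB2 (-0.65, adjusted p = 0.066) and the inhibitor SMAD7 (-0.68, adjusted p = 0.079) followed.

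Of the 20 transcripts of the members 19 were tested one by one, and 1 rose (of KLF4, above) and 2 fell, both of KLF10. Of all 27945 tested transcripts, 2.29% rose and 5.25% fell. ENSSSCT00000078329 was at 6.76, 12.4 and 10.2 TPM in GF pigs, against 21.8, 23.7 and 46.55 TPM in CG pigs (fitted log2 fold change -1.51, adjusted p = 0.044). ENSSSCT00000006646 was at 0, 1.02 and 1.22 TPM in GF pigs, against 7.68, 5.32 and 4.64 TPM in CG pigs (-2.04, adjusted p = 0.027). The remaining ENSSSCT00000006644 was at 8.82, 11.99 and 13.3 TPM in GF pigs, against 14.6, 10.55 and 25.4 TPM in CG pigs, so that the groups overlapped (adjusted p = 0.38). This transcript made up 52.5% ± 4.79 of the KLF10 level in GF pigs and 31.0% ± 3.71 in CG pigs (SD, n = 3 each), without overlap between the groups (two-sided p = 0.1 by exact permutation, the smallest possible). It was the most abundant transcript in GF replicates 1 and 3, and ENSSSCT00000078329 was in GF replicate 2 and in all CG pigs.

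Shares of transcripts could be compared for 15 transcripts of 6 members with at least 2 tested transcripts. For 4 of the 15 the share was higher in every GF pig, against 17.6% of 20839 transcripts in all genes, and for 4 it was lower in every GF pig, against 19.9%. KLF7 had one of them on each side. ENSSSCT00000064987 made up 40.6% ± 1.52 of the KLF7 level in GF pigs and 49.9% ± 1.36 in CG pigs, and ENSSSCT00000031970 made up 38.3% ± 2.67 of it in GF pigs and 33.5% ± 0.95 in CG pigs (SD, n = 3 each). For KLF6, the minor transcript ENSSSCT00000072897 made up 6.79% ± 2.95 in GF pigs and 16.2% ± 5.45 in CG pigs. The main transcript of KLF15, ENSSSCT00000041005, made up 59.3% ± 1.33 in GF pigs and 45.1% ± 11.7 in CG pigs. The shares of the transcripts of KLF4 and KLF13 overlapped between the groups. Transcripts of 1 gene share sequence, and the labels and the paper name different tools for dividing reads among them.

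**Figure D3:**
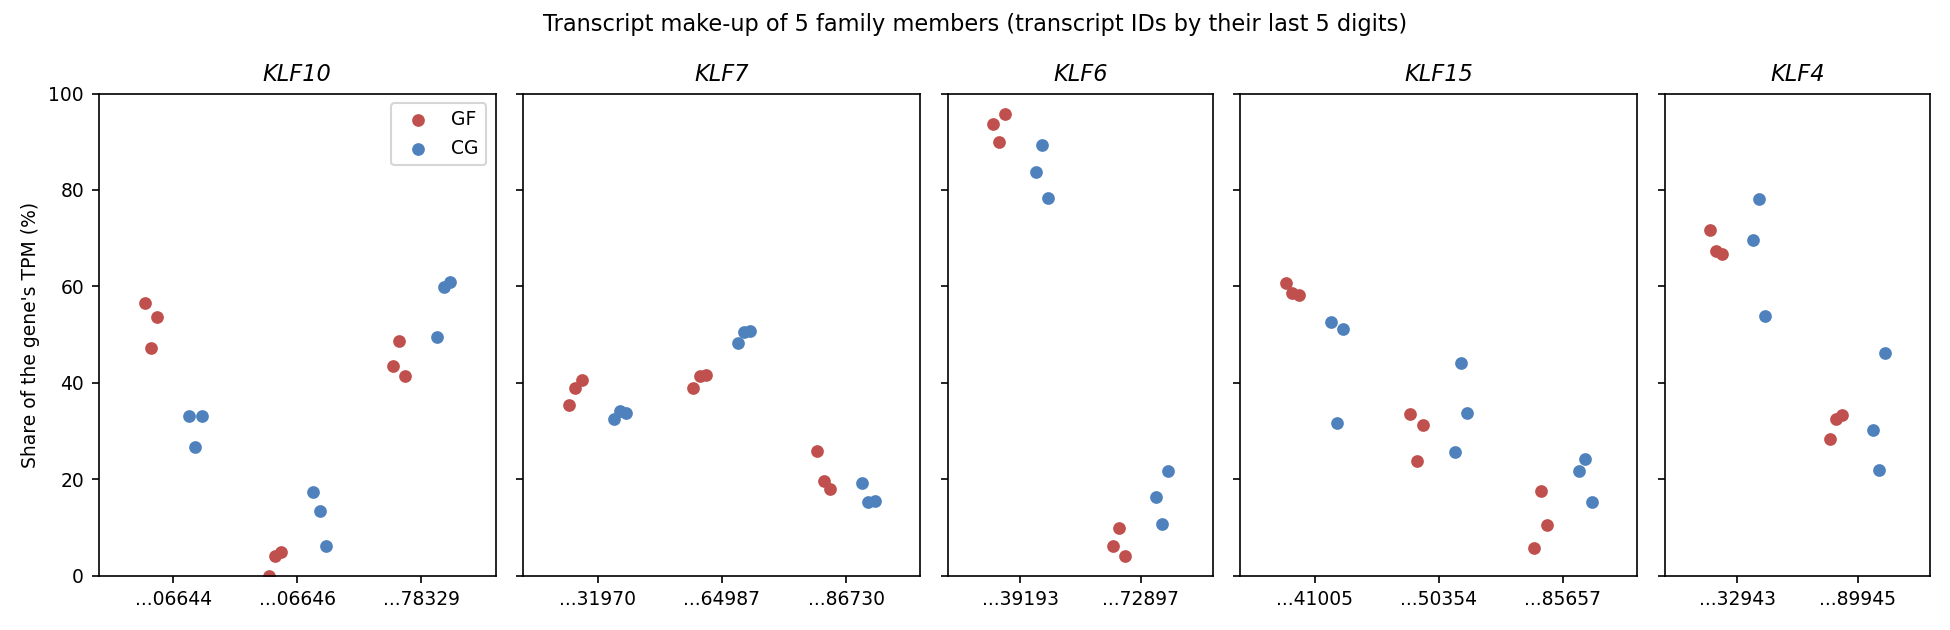
Share of each tested transcript in the TPM of its gene, in percent, for KLF10, KLF7, KLF6, KLF15 and KLF4, with a point for each GF pig on the left and each CG pig on the right of a transcript. The shares of all 3 KLF10 transcripts separate the groups, while those of KLF4 overlap.

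KLF9 and KLF15 are induced by glucocorticoids through the glucocorticoid receptor, and KLF9 also by thyroid hormone in the developing brain of rodents. KLF9 was at 72.8, 54.4 and 60.5 TPM in GF replicates 1, 2 and 3, against 30.4, 31.5 and 59.0 TPM in CG replicates 1, 2 and 3. CG replicate 3 alone reached into the range of the GF pigs. The gene lies on chromosome 1 from 223723613 to 223747661. The log2 fold change was 0.68 (standard error 0.26, adjusted p = 0.13). It was 0.98 without CG replicate 3 (adjusted p = 0.058) and 0.07 when the GF pigs were compared with CG replicate 3 alone. KLF15, which also regulates amino acid and glucose metabolism in liver and muscle, was at 19.55, 39.3 and 29.0 TPM in GF pigs, against 23.2, 19.5 and 48.25 TPM in CG pigs. Its groups overlapped over most of their range. KLF15 lies on chromosome 7 from 53877813 to 53890558. The log2 fold change was 0.01 (95% confidence interval -0.86 to 0.88, adjusted p = 0.99), which leaves room for a difference in either direction.

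Among 10 tested glucocorticoid receptors and induced genes 0 passed, with a median log2 fold change of -0.23, as for all tested genes (0.01 with centred libraries). The receptor NR3C1 was at 33.4, 31.8 and 34.8 TPM in GF pigs, against 43.9, 47.4 and 47.1 TPM in CG pigs (fitted log2 fold change -0.46, adjusted p = 0.058), and DUSP1, a phosphatase that glucocorticoids induce, at 98.3, 104.55 and 79.6 TPM in GF pigs, against 43.5, 31.1 and 72.7 TPM in CG pigs (1.001, adjusted p = 0.076). Of these 10 genes 3 shared the order of the 4 highest libraries with KLF15, namely FKBP5, PER1 and ZBTB16, which were singled out after their values were seen. The other 7 did not, among them DUSP1 and also SGK1, at 113, 111 and 64.0 TPM in GF pigs, against 41.5, 42.7 and 84.7 TPM in CG pigs. How many of all tested genes share this order was not counted, so nothing is read from the match. CG replicate 3 was the highest library for 27.3% of all tested genes. FKBP5, a chaperone of the receptor, was at 27.4, 80.8 and 74.3 TPM in GF replicates 1, 2 and 3, against 51.8, 36.4 and 115.0 TPM in CG replicates 1, 2 and 3. PER1, a clock gene, was at 48.0, 66.0 and 64.2 TPM in GF pigs, against 54.9, 40.3 and 102.4 TPM in CG pigs. In KLF15, FKBP5 and PER1, CG replicate 3 was highest, followed by GF replicates 2 and 3 and CG replicate 1, with GF replicate 1 and CG replicate 2 lowest. KLF9 shared the high value of CG replicate 3 but had its highest value in GF replicate 1. Of 8 tested thyroid hormone receptors and responsive genes 0 passed (median log2 fold change -0.39). The smallest p was that of DIO3, an enzyme that inactivates thyroid hormone (-1.18, adjusted p = 0.099). The receptor THRA was at 141.7, 246 and 207 TPM in GF pigs, against 272, 259 and 274 TPM in CG pigs (-0.47, adjusted p = 0.17).

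**Figure D4:**
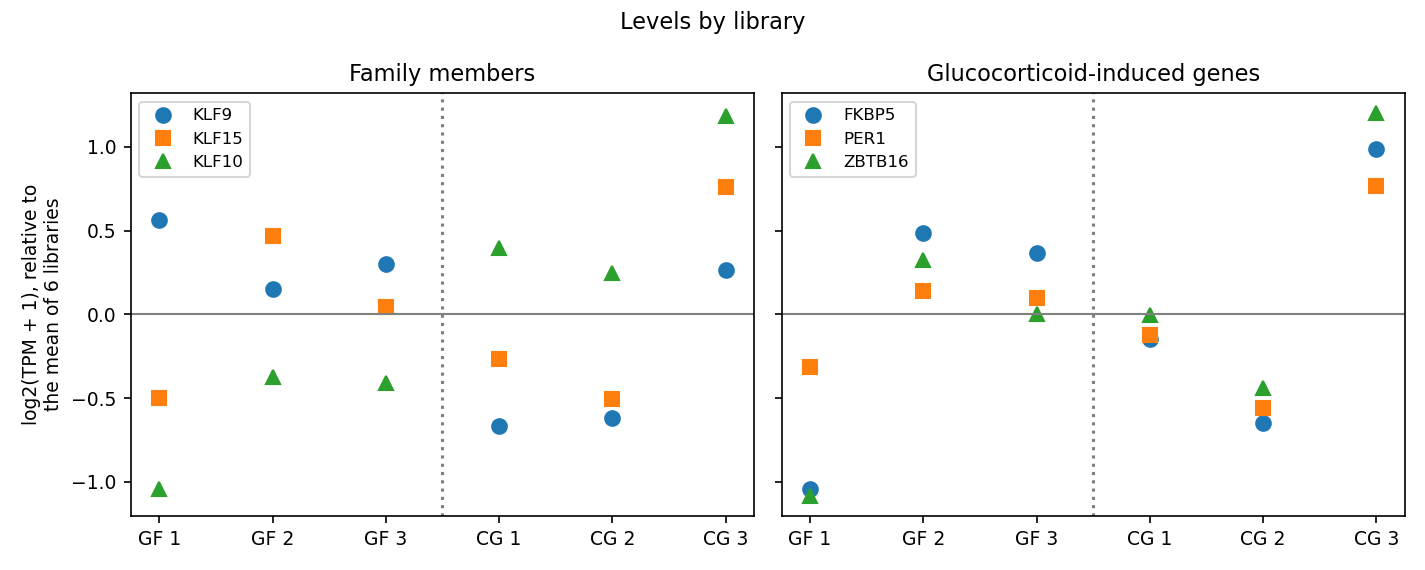
Log2(TPM + 1) of KLF9, KLF15 and KLF10 (left) and of the glucocorticoid-induced genes FKBP5, PER1 and ZBTB16 (right) in each library, relative to the mean of the gene over the 6 libraries. CG replicate 3 is the highest library for KLF15, KLF10, FKBP5, PER1 and ZBTB16, and GF replicate 1 is below the mean for all shown genes except KLF9. FKBP5, PER1 and ZBTB16 were picked from the glucocorticoid list because their order of libraries matched KLF15, so their likeness to it follows from this choice. DUSP1 and SGK1 of the same list did not share that order and are not shown.

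KLF7, which supports the growth of axons and the survival of sensory neurons in mice, was at 49.7, 36.1 and 52.5 TPM in GF pigs, against 60.25, 58.6 and 62.1 TPM in CG pigs. All GF pigs lay below the CG pigs, which were close to each other, and GF replicate 2 was lowest. KLF7 lies on chromosome 15 from 110282399 to 110380165. The log2 fold change was -0.40 (standard error 0.16, adjusted p = 0.15), and -0.16 with each library centred on its median. The largest difference among its transcripts was that of ENSSSCT00000064987, at 19.3, 14.9 and 21.8 TPM in GF pigs, against 29.1, 29.6 and 31.6 TPM in CG pigs (-0.68, adjusted p = 0.061). Of 5 tested genes for axon growth that are linked to KLF7, 0 passed. GAP43, a protein of growing axons, was at 1187, 580 and 1163 TPM in GF pigs, against 599, 706 and 603 TPM in CG pigs. GF replicate 2 was its lowest GF pig, as for KLF7. There GAP43 was near the CG pigs, while KLF7 was farthest from them. The neuron markers also had their lowest sum in that library. It was 1655, 1064 and 1720 TPM in GF replicates 1, 2 and 3, against 1533 to 1728 TPM in CG pigs. Nothing is read from the shared low value.

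KLF5, a factor of proliferating epithelial and smooth muscle cells, lies on chromosome 11 from 45370009 to 45386673 and had the lowest mean level of the members. It was at 1.62, 1.82 and 2.34 TPM in GF pigs, against 3.11, 3.03 and 11.4 TPM in CG replicates 1, 2 and 3. Every GF pig was lower, but most of the distance came from CG replicate 3. Its log2 fold change of -1.02 (adjusted p = 0.16, standard error 0.43) became -0.48 without that library (adjusted p = 0.20). In the same library epithelial markers were high, where EPCAM had 61.4 TPM. It had 0.26 to 0.81 TPM in GF pigs, against 1.29 TPM in CG replicate 1 and 0.28 TPM in CG replicate 2. High in CG replicate 3 as well were the pituitary markers given above. Their part in the level of KLF5 was not tested.

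KLF3 (chromosome 8 from 30024978 to 30060981), KLF6 (chromosome 10 from 66488445 to 66497830) and KLF13 (chromosome 1 from 143499136 to 143540233) had small fold changes with narrow intervals. KLF3, a repressor that recruits CtBP proteins, was at 22.35, 29.3 and 24.6 TPM in GF pigs, against 33.9, 30.75 and 26.5 TPM in CG pigs (fitted log2 fold change -0.25, 95% confidence interval -0.63 to 0.12, adjusted p = 0.32). KLF6, which is induced by tissue injury, was at 15.4, 14.7 and 16.3 TPM in GF pigs, against 14.8, 17.7 and 17.8 TPM in CG pigs (-0.10, interval -0.45 to 0.24, adjusted p = 0.67). KLF13, a relative of KLF9 that also binds the corepressor SIN3A, was at 61.2, 58.0 and 42.2 TPM in GF pigs, against 56.0, 56.1 and 57.5 TPM in CG pigs (-0.09, interval -0.46 to 0.29, adjusted p = 0.74). The groups overlapped for all of these, and the intervals exclude a log2 difference of 1 in size. With each library centred on its median, KLF6 (0.14) and KLF13 (0.16) had positive values and KLF3 was at -0.0074. No direction is given for any of them.

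The table also holds 7 further KLF genes. Of these 4 were tested, 1 fell and 0 rose (median log2 fold change -0.39). KLF16, a repressor related to KLF9 and KLF13, was at 17.5, 16.5 and 16.8 TPM in GF pigs, against 33.3, 33.0 and 35.1 TPM in CG pigs, a difference beyond the spread within either group (log2 fold change -0.95, standard error 0.12, adjusted p = 0.023). As for KLF4, the call held only without GF replicate 2 when single libraries were left out. KLF1, the factor of red blood cell precursors, was listed at 0 to 0.07 TPM in GF pigs and at 0 in CG pigs. The beta globin gene HBB, which KLF1 activates, was at 601, 1172 and 420 TPM in GF pigs, against 10.03, 3.03 and 5.56 TPM in CG pigs. Of 6 tested SP genes, the nearest relatives of the family, 0 passed, and among them SP4, a factor of neurons, had the smallest p (log2 fold change -0.47, adjusted p = 0.15). Of 12 listed cofactors and other interacting proteins of the KLF family 0 passed, with a median log2 fold change of -0.14 (0.10 with centred libraries). The corepressor CTBP1 was at 62.8, 57.6 and 57.8 TPM in GF pigs, against 79.0, 84.95 and 80.9 TPM in CG pigs (-0.45, adjusted p = 0.054), and CTBP2 followed (-0.71, adjusted p = 0.078).

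Several KLF genes are also immediate early genes, which neurons and other cells switch on within minutes of a stimulus. Of 11 tested immediate early genes 0 passed. Their median log2 fold change was -0.69, but 0.13 without CG replicate 3, so no direction is given. The levels of the list summed to 167, 251.3 and 202 TPM in GF pigs, against 139, 137 and 744 TPM in CG replicates 1, 2 and 3. The smallest p values were those of EGR4 (-0.76, adjusted p = 0.16) and FOSB (-1.15, adjusted p = 0.19). FOS was at 42.3, 77.7 and 69.4 TPM in GF pigs, against 39.7, 35.0 and 245 TPM in CG replicates 1, 2 and 3. CG replicate 3 was highest for FOS as for 5 of the 10 members, KLF5, KLF6, KLF7, KLF10 and KLF15, and for 27.3% of all tested genes. The margin was small for KLF6 (17.8 against 17.7 TPM in CG replicate 2) and for KLF7 (62.1 against 60.25 TPM in CG replicate 1). KLF2 and KLF4 also had their highest CG level in CG replicate 3, but it stayed below that of every GF pig.

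The genes with the pattern most like that of KLF4 over the 6 libraries were MRPL20, of the mitochondrial ribosome, LDHB, a lactate dehydrogenase, and NTAN1, an amidase of protein degradation. Likeness was the root mean square difference between log2(TPM + 1) values centred on the mean of each gene, which was 0.09, 0.13 and 0.13. MRPL20 was at 38.9, 41.65 and 37.1 TPM in GF pigs, against 18.6, 14.1 and 19.1 TPM in CG pigs.

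**Figure D5:**
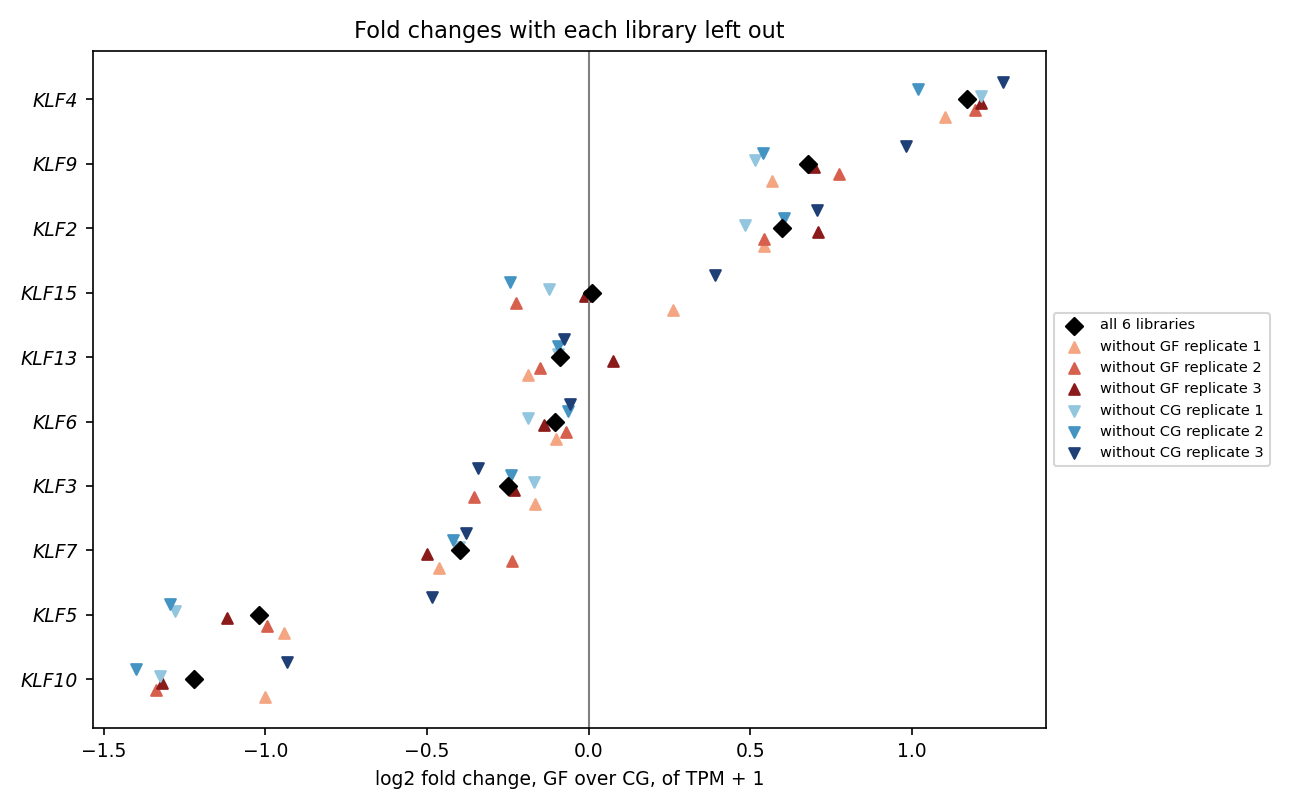
Each member's log2 fold change, GF over CG, with all 6 libraries (diamonds) and with each library left out (upward triangles for GF, downward triangles for CG). KLF4, KLF9 and KLF2 stay above 0 and KLF10, KLF5, KLF7, KLF3 and KLF6 below it, while KLF15 and KLF13 cross it.

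In small RNA of the same pigs, 5 miRNAs were compared that are known from human and mouse for sites in KLF mRNAs. They were miR-92a, miR-92b-3p, miR-363 and miR-32, which share a seed and are known for sites in KLF2 and KLF4, and miR-145-5p, known for sites in KLF4 and KLF5. Of these, miR-32 rose in GF pigs and the others did not pass, where 6.13% of 326 tested miRNAs rose and 10.1% fell. miR-32 was at 28.2, 32.5 and 25.3 RPM (reads scaled to all reads mapped to miRBase) in GF pigs, against 11.8, 9.88 and 9.99 RPM in CG pigs (fitted log2 fold change 1.36 with a standard error of 0.17, adjusted p = 0.0084). The call was lost without CG replicate 1 (adjusted p = 0.051) or CG replicate 2 (adjusted p = 0.054). It was a small part of the summed level of these 4 members of its seed family (miR-25, a further member, was not analysed here), at 0.406% to 0.616% in GF pigs, against 0.155% to 0.165% in CG pigs. miR-92a, the most abundant, was at 3725, 3009 and 2926 RPM in GF pigs, against 3921, 3540 and 3570 RPM in CG pigs (-0.20, adjusted p = 0.32). miR-145-5p was at 513, 331 and 373 RPM in GF pigs, against 388, 376 and 547 RPM in CG pigs (-0.11, adjusted p = 0.74). The gene of miR-32 lies 1.51 Mb from KLF4 on chromosome 1, from 250115904 to 250115973, within TMEM245. TMEM245 mRNA was at 33.1, 33.3 and 34.6 TPM in GF pigs, against 38.3, 39.2 and 46.25 TPM in CG pigs (-0.28, adjusted p = 0.18).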

How the data were processed

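Each of 3 GF and 3 CG pigs gave libraries of long and of small RNA from tissue labelled as hypothalamus. The deposited TPM were made by the authors from reads aligned to Sscrofa11.1, for which the labels name fastp, HISAT and RSEM and the paper TopHat, Cufflinks and HTSeq. The deposited RPM were made by the authors from reads mapped to miRBase. TPM keep no depth, so the reads behind a value are unknown. Whether counting used the strand is not given in the sources used here.

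TPM were added up per gene, and log2(TPM + 1) was fitted by limma-trend (limma 3.58.1, R 4.3.3, values of at least 1 in at least 3 libraries, Benjamini-Hochberg adjustment over all tested features). The words rose and fell are kept for an adjusted p under 0.05. The study's edgeR needs counts and was not run. Fold changes understate low genes. The fit was tested on simulated data. Figures used matplotlib 3.10.9.

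The members, lists and tests were chosen with earlier results of these data known. Named were all members, up to 3 genes per list by smallest p, the 3 genes most like a called member and, chosen after their values were seen, NOS3, FOS, SGK1, EGFL7, FOLR1, FKBP5, PER1, ZBTB16, KLF1, EPCAM, NKX2-1, ZFY and TMEM245. Further lists (markers of mural cells, microglia, astrocytes, oligodendrocytes and their precursors, neurons, erythroid cells, lymphocytes, fibroblasts and choroid plexus) are given in the closing section. RefSeq positions matched all 10 members. The lncRNA table was not used. Alternatives were a pseudocount of 0.1, no low-value filter, mitochondrial genes out of the scaling, median-centred libraries, transcripts in place of genes, the replicate number as a block, leaving out each library and, chosen after seeing the data, 2 further sets of libraries and the gene lists under each setting.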

Additional observations from a re-analysis of the deposited data

How the results depend on the processing

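KLF2, KLF3, KLF4, KLF5, KLF7, KLF9 and KLF10 kept the sign of their log2 fold change under all 13 alternatives fitted on genes, and among these KLF4 alone was called, in 4 of them. A kept sign can go with almost no difference. With centred libraries KLF3 was at -0.0074 and KLF7 at -0.16, against -0.25 and -0.40 in the main comparison. TPM keep no depth, which limits what can be said of low values such as those of KLF5. The cause of the changes below was not tested. Counts are given as rose and fell, where 1 and 0 members and 158 and 722 genes passed in the main comparison. Without the low-value filter 0 members rose, and 88 and 254 genes passed. With mitochondrial genes out of the scaling 164 genes fell, and KLF13 was at 0.012. With centred libraries 265 and 129 genes passed, KLF6 was at 0.14, KLF13 at 0.16, miR-92a at 0.10, miR-92b-3p at 0.12, miR-363 at 0.10 and miR-145-5p at 0.19. The median log2 fold change of all genes is -0.23 without centring. With transcripts in place of genes 1 member (KLF10) fell, and 605 and 1368 genes passed. Leaving out each library gave 0 to 1 members that rose, 14 to 417 genes that rose, 8 to 920 that fell and 0 to 1 miRNAs that rose. The fold change then ranged over -0.19 to 0.075 for KLF13, -0.24 to 0.39 for KLF15 and -0.29 to 0.060 for miR-145-5p. Chosen after seeing the data, leaving out GF replicate 1 and CG replicate 3 together gave 0 members and 16 and 15 genes. Comparing the GF pigs with CG replicate 3 alone, which is assumed to vary like the others, gave 0 members, 5 and 35 genes and -0.76 for KLF15.

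With the replicate block 0 members rose (KLF4, adjusted p = 0.074), and 17 and 18 genes passed. Whether the replicate numbers pair the samples is not given in the sources used here. The deviations of same-numbered libraries correlated at -0.02, 0.06 and -0.01 in long RNA. In small RNA they correlated at -0.0039, -0.20 and -0.31 for replicates 1, 2 and 3. With so few pigs these values cannot decide whether pairs exist.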

Other observations

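Of the markers of other cell types, 1 of 7 for mural cells rose in GF pigs (CNN1, a smooth muscle protein, log2 fold change 1.13, adjusted p = 0.048), while PDGFRB (-0.62, adjusted p = 0.065) and TAGLN (-0.60, adjusted p = 0.10) lay lower in every GF pig without passing and the list median was 0.0067. The CNN1 call was lost whichever single library was left out. Of the markers of oligodendrocytes 1 of 5 rose (MBP, a myelin protein, 2.95, adjusted p = 0.0092, a call lost without CG replicate 1 or 2) and of those of erythroid cells 1 of 3 (HBB, 6.65, adjusted p = 0.0027). Of 4 choroid plexus markers 2 rose, CLIC6 (1.47, adjusted p = 0.026) and TTR, a thyroid hormone carrier (3.60, adjusted p = 0.029), while KL, lower in every GF pig (-0.95, adjusted p = 0.11), and FOLR1 (-0.39, adjusted p = 0.60) did not pass. Of these 4, 0 rose without GF replicate 1 or without any of the CG replicates, and 1 rose without GF replicate 3. None of the tested markers passed for microglia (6), astrocytes (6), oligodendrocyte precursors (5), neurons (5), lymphocytes (2) and fibroblasts (4), for which 0 rose and 0 fell. Microglia markers summed to 319 to 1024 TPM in GF pigs, against 407 to 932 TPM in CG pigs. The part of these cells in the levels of the KLF genes was not tested.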
